A study of Mus musculus with 9 samples.

Results

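Copying the genome needs a fixed set of proteins, and the 46 genes followed here encode its core: the helicase subunits, the factors that license and fire replication origins, the polymerases and primase, the sliding clamp and its loader, the single-strand binding and ligation proteins, the enzymes that make deoxynucleotides, and the E2F transcription factors. They were taken by symbol from the 49671 Ensembl gene IDs of the count tables, and all 46 were found. All 46 also passed the filter on low counts, which left 31961 genes for testing. RNA was sequenced from cells of the pigment lineage sorted from mouse body skin at 3 ages: melanoblasts, the precursors of pigment cells, at postnatal day 0.5 (3 libraries), melanocyte stem cells (McSC) of adults at 8 to 10 weeks (4 libraries), and McSC of aged mice at 24 months (2 libraries). All animals were wild-type C57BL/6 females. The newborns and adults were C57BL/6J from in-house matings, whereas the aged mice came from an outside aged-rodent colony at 21 months and were kept in the same facility until sorting, so age and colony cannot be told apart in the aged group. Cells were sorted as KIT-positive and CD45-negative from dermis, with adult and aged skin taken in telogen, when hair follicles rest, and each library pooled cells of several animals.

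The helicase that opens the DNA is loaded on origins in an inactive form in the G1 phase (licensing) and is switched on by kinases and accessory factors at the start of S phase (firing). Polymerases, the clamp and ligase then copy and join the strands, while ribonucleotide reductase, thymidylate synthase and thymidine kinase supply the building blocks. Most of these genes are transcribed from promoters bound by E2F factors, which are held back by the retinoblastoma protein family in resting cells, and McSC in telogen skin are known as cells that rest between hair cycles.

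The start of each gene was examined in the promoter windows of RefSeq (build GRCm38.p6, 250 bases before to 50 bases after the annotated start), where 38 of the 46 genes had an entry; Prim2, Gins2, Gmnn, Mcm4, Gins1, Gins4, Rfc2 and Pole had none. An E2F-type motif (TTTCCCGC, TTTGGCGC, TTTCGCGC or TTTGCCGC on either strand) was present in 16 of the 38 genes (42.1%), against 704 of all 27025 genes with a window (2.6%). The CCAAT box, on either strand, was present in 60.5% of the 38 genes and in 41.1% of all genes. The CHR element TTTGAA, on either strand, which marks genes of the later cell cycle, was present in 18.4% of the 38 and in 20.2% of all genes. The upstream sequence of 4 genes is shown so that the motif can be seen in its place; each is the most abundant gene of its role group that holds a motif within 150 bases of the start and has no more than 30 of those bases in an annotated exon. They are the 150 bases that end at the base before the RefSeq start, written 5′ to 3′ on the gene's strand, with the E2F-type motifs in capitals: Mcm6 (chr1:128359706-128359855, minus strand), Cdc6 (chr11:98908001-98908150, plus strand), Pola1 (chrX:93632156-93632305, minus strand) and E2f3 (chr13:29986064-29986213, minus strand).
Mcm6: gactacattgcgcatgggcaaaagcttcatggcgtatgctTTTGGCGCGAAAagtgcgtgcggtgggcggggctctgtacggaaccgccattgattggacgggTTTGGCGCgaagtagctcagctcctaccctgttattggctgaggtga
Cdc6: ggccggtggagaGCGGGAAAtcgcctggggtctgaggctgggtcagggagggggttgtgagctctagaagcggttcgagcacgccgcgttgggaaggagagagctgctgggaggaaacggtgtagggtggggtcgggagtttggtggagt
Pola1: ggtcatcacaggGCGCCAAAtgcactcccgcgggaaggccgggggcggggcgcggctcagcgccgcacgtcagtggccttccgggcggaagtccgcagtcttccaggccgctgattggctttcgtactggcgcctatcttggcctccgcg
E2f3: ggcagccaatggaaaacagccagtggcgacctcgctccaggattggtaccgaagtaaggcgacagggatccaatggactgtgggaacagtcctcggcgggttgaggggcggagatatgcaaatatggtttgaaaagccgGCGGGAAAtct
The Mcm6 stretch holds 3 motif matches, and 2 of them overlap in the first run of capitals. The other 3 stretches hold 1 match each, 138 bases before the start in Cdc6 and Pola1 and 11 bases before it in E2f3. The match is a description of these letters and not a measured binding site. The Cdc6 stretch lies outside annotated exons but inside the gene span of the GENCODE annotation, which starts at chr11:98907801. Of the 45 windows of the 38 genes, 37 matched the sequence of a GENCODE transcript just after the start.

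Sequencing depth was between 12594770 and 33710117 counts per library, and replicates of a group differed by far more than counting noise (chi-square per degree of freedom 15.2 to 63.3 over 10 pairs of libraries). The 2 mitochondrial ribosomal RNAs took 21.5 to 37.6% of the counts. Melanocyte lineage markers were abundant at all ages, summing to 13164 to 23968 CPM (counts scaled to a common library size, with TMM factors) in melanoblasts, 4353 to 10532 in adult McSC and 7244 to 8769.6 in aged McSC. The immune gene Ptprc encodes the CD45 antigen gated out in the sort. It was low, at 0.678 to 3.17 CPM in melanoblasts, 4.15 to 7.44 in adult and 6.31 to 7.47 in aged McSC. It was called higher in adult and in aged McSC than in melanoblasts. Markers of other skin cells were also present: 12 keratinocyte genes summed to 1571 to 2347, 1603 to 2785 and 1171 to 1381 CPM in melanoblasts, adult and aged McSC, and 9 Schwann cell genes to 619 to 855, 1017 to 1451 and 452 to 524 CPM. Most of the keratinocyte sum in melanoblasts was Cdh1, which averaged 1885 CPM there, 354 in adult and 322 in aged McSC. The sums thus hide a rise of other genes of that list. Krt5 averaged 37.5, 388 and 141 CPM in melanoblasts, adult and aged McSC, and Krt15 11.5, 345 and 118 CPM. In adult McSC against melanoblasts 11 of the 12 keratinocyte and 4 of 9 Schwann cell genes rose. So did 4 of 6 endothelial and 2 of 6 macrophage and dendritic cell genes. In turn 7 of 9 melanocyte lineage and 2 of 5 tested mast cell genes fell, and of 7 fibroblast genes 4 fell and 1 rose. The mast cell genes summed to 17.6 to 28.7, 4.75 to 7.72 and 3.99 to 4.69 CPM in melanoblasts, adult and aged McSC. The part of these cells in the replication gene levels was not tested in any of the comparisons. Genes of olfactory and vomeronasal receptors, which skin cells should lack, had a 95th percentile of 0.961 CPM in melanoblasts, 2.22 in adult and 2.63 in aged McSC. Only Gmnn, in aged McSC, averaged at or below that percentile among the 46 genes.

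Replication genes were lower in adult McSC than in newborn melanoblasts. The 46 genes together held 0.0863, 0.0960, 0.0833 and 0.0886% of all counts in the adult libraries, against 0.126, 0.131 and 0.133% in the melanoblast libraries. On the TMM scale their sum was 723, 886, 731 and 736 CPM in adult McSC, against 2251, 2296 and 1578 CPM in melanoblasts, and the groups did not overlap on either measure. The size differed between the measures: the adult mean was 68.1% of the newborn mean as a share of counts and 37.7% of it in TMM-scaled CPM. Of the 46 genes, 43 fell (93.5%; edgeR quasi-likelihood test, Benjamini-Hochberg adjusted p under 0.05) and 0 rose, where 18.3% of all 31961 genes tested fell and 15.1% rose. All 43 were also lower in each adult library than in each melanoblast library, which held for 19.8% of all genes. The median log2 fold change, adult over newborn, was -1.29 for the 46 genes and 0.39 for all genes. In these bulk libraries, fewer cells that express a gene and less RNA per cell cannot be told apart.

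The size of the fall depended on the scale that sets adult libraries beside newborn ones. Abundant genes (mean log2 CPM above 5) fell as a body in the main fit: 64.9% of 4393 such genes fell, with a median of -0.83. When the scaling factors were computed from those abundant genes alone, the median of all genes moved up by 0.76 on the log2 scale to 1.15, 19 of the 46 genes fell, 2 rose (Ung and Slbp) and their median was -0.51. On that scale 6.21% of all genes fell and 32.6% rose. With a stricter filter (at least 5 CPM in 2 or more libraries) 34 of 45 tested genes fell, 1 rose and the median was -0.80, where 24.5% of all 13639 genes tested fell and 25.9% rose. The 19 genes called lower in every one of the 18 alternatives were the 6 helicase genes, Gmnn, Mcm10, Cdc45, Dbf4, Gins2, Pole, Prim1, Prim2, Lig1, Tyms, Rrm1, Rrm2 and E2f3, and 39 of the 43 were called in all alternatives other than the abundant-gene scale and the stricter filter; the remaining 4 were Rfc2, Pold1, Tk1 and E2f2.

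**Figure D1:**
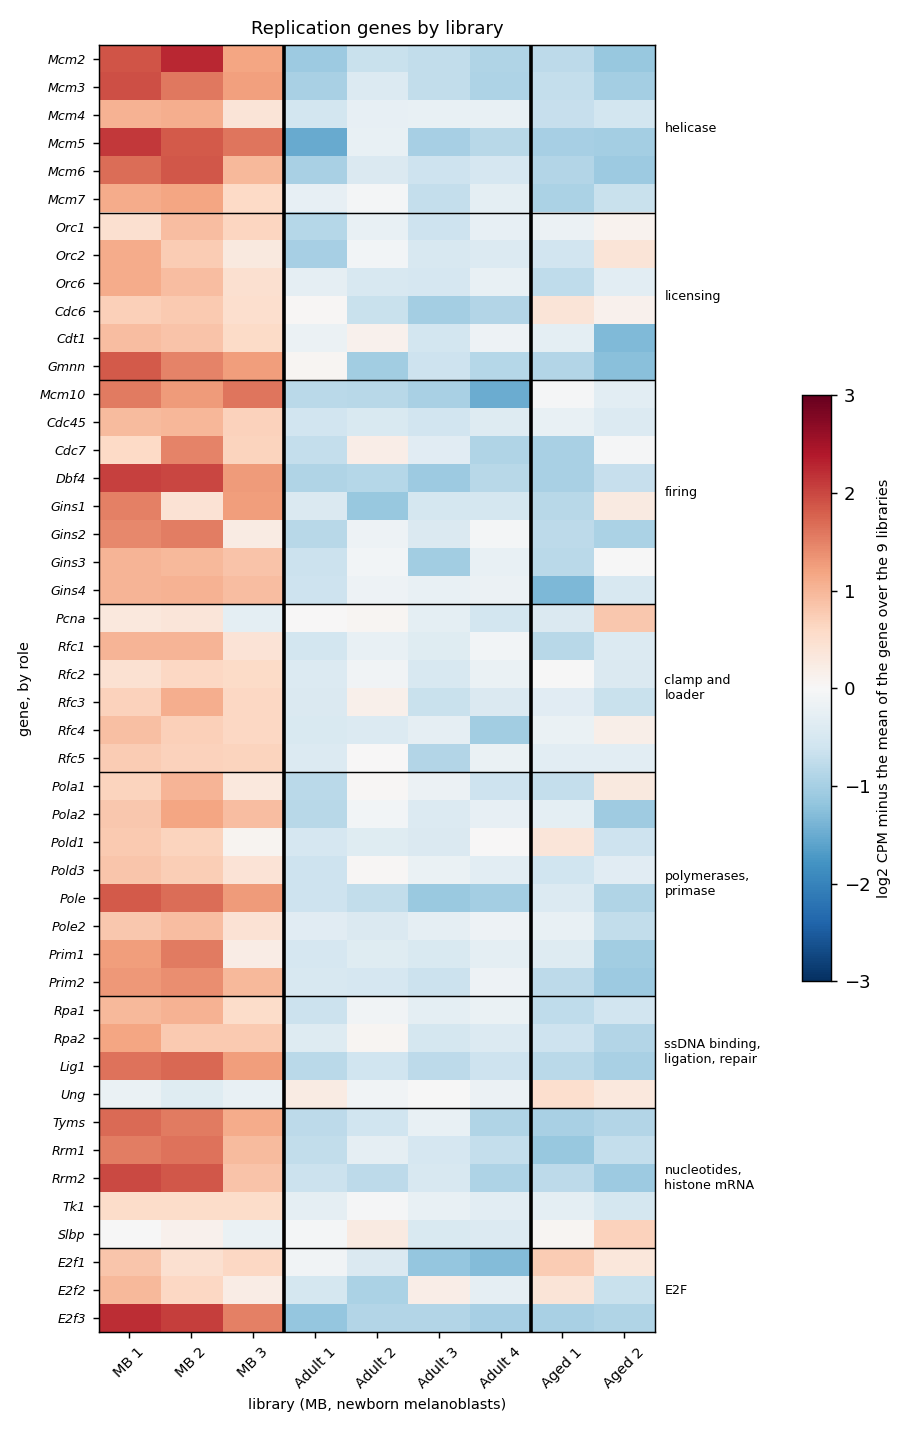
Heat map of the 46 genes (rows, by role) in the 9 libraries (columns; MB, newborn melanoblasts), where colour is log2 CPM minus the gene's mean over the 9 libraries. The 3 melanoblast columns are the high ones for most genes, while Pcna, Slbp and Ung show no such block.

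The helicase genes made up the role group with the deepest median fall. All 6 fell, with a median log2 fold change of -2.26, and all 6 also fell on the scale of abundant genes (median -1.47). Mcm2 (chr6:88883474-88898780, GRCm38), a subunit of the ring, had 9.55, 12.8, 12.2 and 10.8 CPM in adult McSC, against 74.9, 96.7 and 45.8 CPM in melanoblasts. Every adult library was far below every newborn one, and the log2 fold change was -2.68 (SE 0.250, edgeR adjusted p = 1.29e-08). Mcm4 (chr16:15623897-15637400), another subunit, had 34.2, 42.2, 42.8 and 43.4 CPM in adult McSC, against 103, 107 and 65.3 CPM in melanoblasts. The groups again did not overlap, but the fall was the smallest of the 6, at -1.17 (SE 0.219, edgeR adjusted p = 0.000207).

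Of the other 4 subunits, Mcm5 fell as deeply as Mcm2 at -2.69, and the log2 fold changes were -2.35 for Mcm3, -2.18 for Mcm6 and -1.31 for Mcm7. The proteins form a ring with an equal number of each subunit, so their transcripts were set side by side per kilobase of exon, a comparison made after the values were seen and given without a test. In each adult library the highest of the 6 genes was 6.40 to 8.79 times the lowest, against 2.66 to 2.76 times in melanoblasts. The level of Mcm4 over that of Mcm5, per kilobase, was 4.39 to 8.79 in adult McSC, against 1.91 to 2.68 in melanoblasts. The level of Mcm7 over that of Mcm2 was 2.74 to 4.80 in adult McSC, against 1.29 to 1.80 in melanoblasts. These ratios are taken within a library and do not depend on the scale between libraries. The length used joins all annotated exons of a gene and may differ from that of the transcripts made. The size of each ratio depends on these lengths, whereas the change of Mcm4 over Mcm5 or of Mcm7 over Mcm2 between groups does not. The transcripts of Mcm7 share 7.25% of their exon length with Ap4m1 on the opposite strand, and the files do not say whether counting used the strand.

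**Figure D2:**
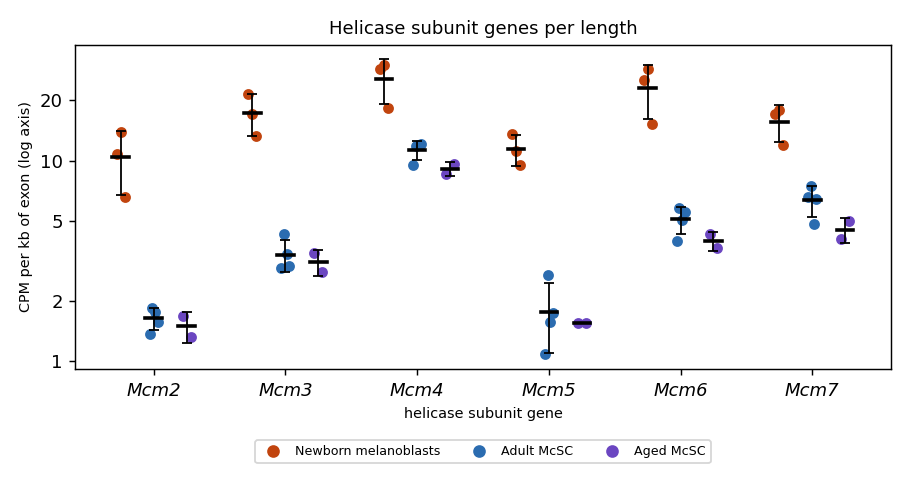
Level of the 6 helicase subunit genes in CPM per kilobase of exon (log axis) in newborn melanoblasts, adult McSC and aged McSC; points are libraries, horizontal bars means and error bars SD. The 6 genes span 2.66 to 2.76 times within a melanoblast library and 6.40 to 8.79 times within an adult one. By this measure, which depends on the exon lengths used, Mcm4 is the highest in every library of each age.

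Licensing genes, whose products put the helicase on origins, had a smaller median fall. All 6 fell in the main fit with a median of -1.22, and only Gmnn did so on the scale of abundant genes. Gmnn (chr13:24751845-24761923) encodes geminin, the inhibitor that blocks relicensing by binding CDT1, and had 3.55, 1.67, 2.23 and 1.91 CPM in adult McSC, against 12.3, 9.70 and 8.18 CPM in melanoblasts. Its groups did not overlap, and its log2 fold change of -2.10 (SE 0.359, edgeR adjusted p = 7.76e-05) was the deepest of the 6, although the adult levels of 1.67 to 3.55 CPM were close to the receptor background of 2.22 CPM. Orc6, a subunit of the origin recognition complex, had 17.5, 15.1, 14.8 and 17.9 CPM in adult McSC, against 45.6, 39.5 and 29.4 CPM in melanoblasts. That was a fall of less depth, -1.22 (SE 0.230, edgeR adjusted p = 0.000217), again without overlap. The complex subunits Orc1 and Orc2 and the helicase loaders Cdc6 and Cdt1 had log2 fold changes of -1.16, -1.21, -1.24 and -0.96, of which Cdc6 and Cdt1 were also not called under the stricter filter (edgeR adjusted p = 0.0535 and 0.120). Orc2 shares 29.8% of its exon length with Nif3l1, Orc1 10.8% with Gm12743 and Orc6 6.93% with Vps35, each on the opposite strand. Vps35 averaged 199.6 CPM in melanoblasts and 70.2 CPM in adult McSC, and Nif3l1 20.3 and 7.79 CPM. Their part in the Orc6 and Orc2 counts was not tested.

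The 8 firing genes all fell, with a median of -1.46, and 4 of them (Mcm10, Cdc45, Dbf4 and Gins2) also fell on the scale of abundant genes. Dbf4 (chr5:8396973-8422716), the regulatory subunit that activates the CDC7 kinase, had 11.3, 11.7, 9.95 and 11.8 CPM in adult McSC, against 87.8, 84.5 and 50.8 CPM in melanoblasts. Its log2 fold change of -2.73 (SE 0.234, edgeR adjusted p = 3.2e-09) rested on adult libraries that lay close together, between 9.95 and 11.8 CPM. Cdc7, the kinase itself, had a smaller log2 fold change of -1.36 (SE 0.315, edgeR adjusted p = 0.00168). Mcm10, which binds the helicase as it is activated, had 5.22, 5.13, 4.70 and 3.29 CPM in adult McSC, against 26.9, 22.2 and 28.0 CPM in melanoblasts, with a log2 fold change of -2.48 (SE 0.257, edgeR adjusted p = 7.22e-08). Cdc45 and the GINS genes, whose products complete the active helicase, had log2 fold changes of -1.38 for Cdc45, -1.77 for Gins1, -1.51 for Gins2, -1.40 for Gins3 and -1.28 for Gins4. Gins2 shares 67.3% of its exon length with Gse1 on the opposite strand, so its counts cannot be told apart from reads of that gene unless strand was used.

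Polymerase and primase genes fell in all 8 cases, with a median of -1.21, and 3 of them (Pole, Prim1 and Prim2) also fell on the scale of abundant genes. Pole (chr5:110286306-110337474), the catalytic subunit of the leading-strand polymerase epsilon, had 14.2, 13.2, 10.2 and 10.9 CPM in adult McSC, against 78.5, 70.2 and 53.4 CPM in melanoblasts. Its log2 fold change was -2.47 (SE 0.232, edgeR adjusted p = 1.41e-08), whereas Pole2, the second subunit of the same enzyme, changed by -1.03 (SE 0.248, edgeR adjusted p = 0.00242). Pola1, the catalytic subunit of the polymerase that extends RNA primers, had 21.2, 37.7, 32.6 and 24.2 CPM in adult McSC, against 58.8, 75.4 and 46.2 CPM in melanoblasts. The groups did not overlap and the log2 fold change was -1.06 (SE 0.260, edgeR adjusted p = 0.00290). The primase subunits Prim1 and Prim2 had log2 fold changes of -1.52 and -1.66, Pola2 of -1.36, and the polymerase delta subunits Pold1 and Pold3 of -0.85 and -0.93. Pold1 was the least firm call of the group: its edgeR adjusted p was 0.0311, and leaving out melanoblast 1, melanoblast 2, adult 1, adult 2, adult 3, aged 1 or aged 2 each ended the call, with log2 fold changes between -1.04 and -0.70 over the 9 libraries left out in turn.

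In the clamp and loader group the loader genes fell and the clamp gene did not pass the test. The 5 replication factor C genes, which encode the complex that opens the clamp and closes it around DNA, had log2 fold changes between -1.26 (Rfc4) and -0.84 (Rfc2), and 0 of them fell on the scale of abundant genes. Rfc1, the large subunit, had 39.5, 49.4, 45.4 and 54.3 CPM in adult McSC, against 118, 118 and 77.4 CPM in melanoblasts. That is a log2 fold change of -1.15 (SE 0.221, edgeR adjusted p = 0.000287) without overlap. Rfc2 shares 15.1% of its exon length with Lat2, Rfc4 12.7% with Eif4a2 and Rfc5 10.7% with Wsb2, each on the opposite strand. Eif4a2 averaged 282, 333 and 438 CPM in melanoblasts, adult and aged McSC, and Wsb2 61.5, 23.2 and 21.8 CPM. Their part in the Rfc4 and Rfc5 counts was not tested. Rfc3 lay within the range of the others at -1.13.

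Pcna (chr2:132249162-132253314) encodes the sliding clamp that holds polymerases on DNA and also serves DNA repair. It had 126, 131, 102 and 86.2 CPM in adult McSC, against 156, 162 and 103 CPM in melanoblasts, and the groups overlapped. Its log2 fold change was -0.34 (SE 0.260, edgeR adjusted p = 0.322), and it was positive on the scale of abundant genes (0.48) and under the stricter filter (0.17), without passing the test in either. Its part in the summed CPM of the 46 genes was 17.4, 14.7, 14.0 and 11.7% in adult McSC, against 6.95, 7.04 and 6.55% in melanoblasts. Reads may be shared with the pseudogene Pcna-ps2, which had 41, 21, 35 and 30 counts in adult McSC, against 43, 41 and 17 counts in melanoblasts.

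Among the proteins that coat, join and repair DNA, 3 of 4 genes fell. Lig1 (chr7:13277283-13311433), the ligase that joins Okazaki fragments, had 20.2, 23.4, 20.7 and 23.2 CPM in adult McSC, against 110.3, 118 and 85.2 CPM in melanoblasts. Its log2 fold change of -2.26 (SE 0.212, edgeR adjusted p = 1.43e-08) was held on the scale of abundant genes at -1.46. Rpa1 and Rpa2, subunits of the protein that covers single-stranded DNA, had log2 fold changes of -1.16 and -1.23, and on the scale of abundant genes their edgeR adjusted p was 0.0550 and 0.0542. Ung (chr5:114130386-114139323), the glycosylase that removes uracil from DNA, had 7.83, 6.16, 6.56 and 5.87 CPM in adult McSC, against 5.73, 5.11 and 5.62 CPM in melanoblasts. All adult libraries were above all newborn ones by a small margin, which held for 19.5% of all genes, and the log2 fold change of 0.27 (SE 0.292) did not pass (edgeR adjusted p = 0.488). On the scale of abundant genes Ung was called higher, at 1.06 (edgeR adjusted p = 0.0157), and under the stricter filter at 0.76 (edgeR adjusted p = 0.0292).

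Of the 5 genes for nucleotide supply and histone mRNA, 4 fell, and Rrm1, Rrm2 and Tyms also fell on the scale of abundant genes. Rrm2 (chr12:24708241-24714146), the small subunit of ribonucleotide reductase that is made in S phase, had 9.35, 8.51, 10.4 and 7.74 CPM in adult McSC, against 57.4, 53.4 and 26.4 CPM in melanoblasts. Its log2 fold change was -2.34 (SE 0.261, edgeR adjusted p = 2.31e-07). Rrm1 (chr7:102441695-102469771), the large subunit, had 46.1, 64.3, 54.3 and 46.9 CPM in adult McSC, against 224, 241 and 149 CPM in melanoblasts. Its groups were far apart, with a log2 fold change of -1.95 (SE 0.227, edgeR adjusted p = 4.68e-07). Tyms, thymidylate synthase, had a log2 fold change of -2.07 (SE 0.244, edgeR adjusted p = 5.29e-07).

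Tk1, the thymidine kinase of dividing cells, had the smallest log2 fold change of the 4 nucleotide genes. It had 14.8, 17.4, 15.1 and 14.3 CPM in adult McSC, against 26.2, 26.2 and 25.8 CPM in melanoblasts, with a log2 fold change of -0.76 (SE 0.220, edgeR adjusted p = 0.00967) that was 0.01 on the scale of abundant genes and was not called without a filter (edgeR adjusted p = 0.0640). Slbp (chr5:33634952-33652574) encodes the protein that binds the stem-loop of replication-dependent histone mRNAs, and it had 54.8, 69.2, 41.6 and 43.2 CPM in adult McSC, against 56.6, 62.8 and 50.0 CPM in melanoblasts. The groups overlapped and the log2 fold change was -0.11 (SE 0.232, edgeR adjusted p = 0.723); its sign turned under 4 alternatives, and it was called higher on the scale of abundant genes (0.66, edgeR adjusted p = 0.0128).

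All 3 E2F genes, the activators of the E2F family, fell in the main fit, and only E2f3 did so on the scale of abundant genes. E2f3 (chr13:29906575-29986063) had 4.17, 5.05, 5.08 and 4.66 CPM in adult McSC, against 43.4, 39.1 and 26.6 CPM in melanoblasts. Its fall of -2.94 (SE 0.248, edgeR adjusted p = 2.37e-09) was the deepest of the 46 genes, at 13.0% of the newborn level. E2f1 had 4.71, 3.72, 2.27 and 2.04 CPM in adult McSC, against 8.96, 7.09 and 7.73 CPM in melanoblasts, and changed by -1.31 on the log2 scale (SE 0.342, edgeR adjusted p = 0.00462). E2f2 had 3.70, 2.74, 6.11 and 4.45 CPM in adult McSC, against 10.5, 8.24 and 6.17 CPM in melanoblasts. Its highest adult library nearly met the lowest newborn one, and its call (-0.96, edgeR adjusted p = 0.0372) was lost without melanoblast 1, melanoblast 2, adult 1, adult 2, adult 4, aged 1 or aged 2, with values between -1.19 and -0.76 over the libraries left out in turn. The promoter motif was seen in 16 of the 35 genes with a window that fell (45.7%) and in 0 of the 3 that were not called, Pcna, Slbp and Ung, and no test was made on these few.

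**Figure D3:**
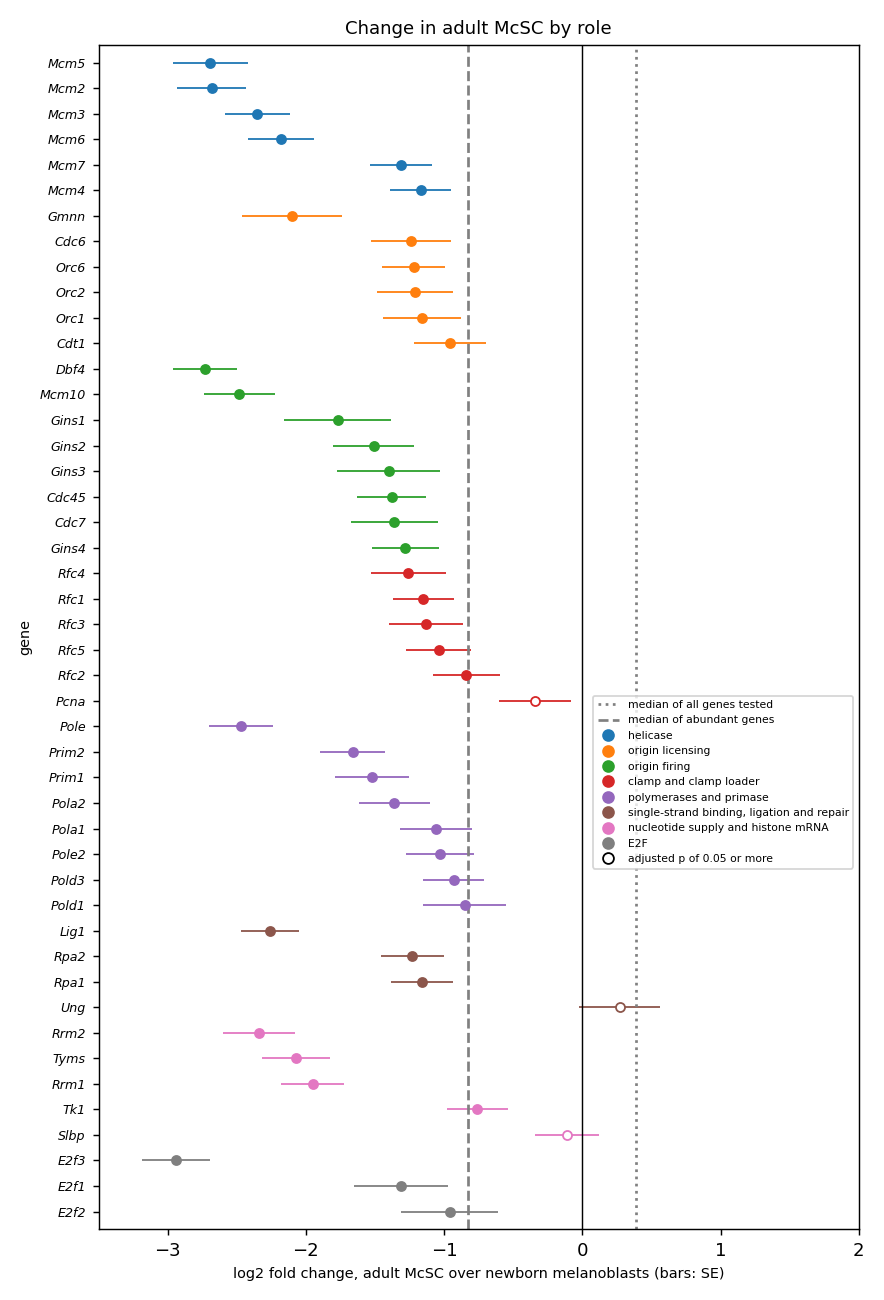
Log2 fold change of each of the 46 genes in adult McSC over newborn melanoblasts (x axis; bars are SE), by role; open symbols have an edgeR adjusted p of 0.05 or more. The 3 open symbols are Pcna, Ung and Slbp, and E2f3 lies farthest left at -2.94; lines mark the median of all genes (0.39) and of abundant genes (-0.83).

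A further list of 77 genes of the same pathways showed a like direction. Of the 76 tested (Fen1, which encodes the flap nuclease, did not pass the filter), 57 fell (75%) and 1 rose in adult McSC, against 18.3% and 15.1% of all genes, with 35 lower and 7 higher on the scale of abundant genes, against 6.21% and 32.6% of all genes. Among partners of the helicase, 8 of 12 fell, led by Ticrr (-3.83), which brings firing factors to origins, Topbp1 (-2.44) and Wdhd1 (-1.67). Among clamp and strand-maturation genes 10 of 13 fell, including Rnaseh2b (-2.43), a subunit of the enzyme that removes RNA from DNA, Dna2 (-2.20) and Atad5 (-2.06), which unloads the clamp. All 10 genes of fork protection and chromatin copying fell, with Uhrf1, which recruits the maintenance methyltransferase, at -3.40, the checkpoint mediator Clspn at -2.82 and the histone chaperone subunit Chaf1b at -2.58. Of 17 genes of G1 and S phase control 13 fell, most deeply Ccna2 (a cyclin of S phase, -4.44) and the repressor E2Fs E2f8 (-4.09) and E2f7 (-2.61). Ccna2 had 8.81, 8.90, 9.24 and 8.70 CPM in adult McSC, against 226, 222 and 134 CPM in melanoblasts. Rb1 (-0.20), Rbl2 (-0.15) and Ccne1 (0.45), which encode the retinoblastoma protein, a relative of it and a cyclin E, did not pass (edgeR adjusted p = 0.481, 0.605 and 0.318).

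Of 24 genes of nucleotide supply outside the 46, 16 fell and 1 rose. Among those that fell were Cmpk1 (-1.87), a nucleotide kinase, and Dck (-1.82), a nucleoside kinase. Samhd1, the enzyme that breaks down deoxynucleotides, was the only gene of the 76 tested that rose in the main fit. It had 73.7, 102, 74.2 and 92.9 CPM in adult McSC, against 30.8, 38.5 and 21.5 CPM in melanoblasts. Every adult library was above every newborn one, and the log2 fold change was 1.50 (SE 0.238, edgeR adjusted p = 3.16e-05). Rrm2b, the form of the small reductase subunit used by cells outside S phase, had a log2 fold change of 0.05 (SE 0.231, edgeR adjusted p = 0.892), and Tk2, the mitochondrial thymidine kinase, of -0.64 (SE 0.303, edgeR adjusted p = 0.105).

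Ratios of 2 genes within a library do not depend on the scale between libraries, and 6 such pairs were compared between the 6 McSC libraries, adult and aged together, and the 3 melanoblast libraries. The smallest p that an exact two-sided permutation test can give in this design is 0.0238. The log2 ratio of Rrm2 to Rrm2b was -1.56, -1.80, -1.84 and -2.01 in adult and -1.70 and -2.18 in aged McSC, against 1.11, 0.39 and 0.14 in melanoblasts. The groups did not overlap: the S-phase subunit was the more counted of the pair in all 3 newborn libraries and the less counted in all 6 McSC libraries, with a difference of -2.39 (exact permutation p = 0.0238, Benjamini-Hochberg over the 6 pairs 0.0714). The log2 ratio of the licensing factor Cdt1 to its inhibitor Gmnn was 1.67, 3.03, 1.96 and 2.57 in adult and 2.45 and 1.80 in aged McSC, against 0.97, 1.25 and 1.20 in melanoblasts. It too was without overlap, higher by 1.10 in McSC (exact permutation p = 0.0238, adjusted 0.0714). Neither ratio passed after adjustment. Both already had the smallest p that this design allows, so no wider gap between the groups could have lowered their adjusted p. The adjusted p therefore cannot decide on either ratio. Gmnn, the lower gene of its pair, averaged 2.34 CPM in adult and 1.65 CPM in aged McSC. That is near the 95th percentile of receptor genes, 2.22 and 2.63 CPM, so the Cdt1 to Gmnn ratio rests on a gene near background.

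The other 4 pairs overlapped between the groups. Tk1 over Tk2 differed by -0.33 (exact permutation p = 0.310, adjusted 0.619) and Orc1 over Orc4 by -0.14 (exact permutation p = 0.714, adjusted 0.857). Rfc4 over Rfc1 differed by 0.13 (exact permutation p = 0.714, adjusted 0.857) and E2f1 over E2f4, a repressor-type E2F, by 0.12 (exact permutation p = 0.881, adjusted 0.881). In E2f1 over E2f4 the adult libraries spread from -3.61 to -1.38 while the aged ones were at -1.04 and -0.83.

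**Figure D4:**
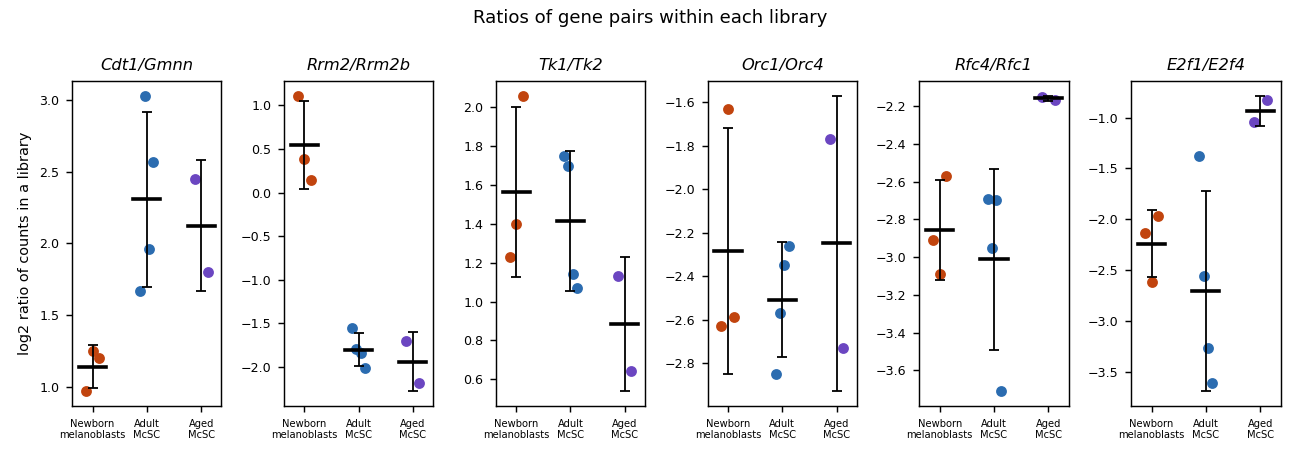
Log2 ratio of counts of 6 gene pairs within each library for newborn melanoblasts, adult McSC and aged McSC; points are libraries, bars means and SD, and each panel has its own y axis. In Rrm2/Rrm2b the 6 McSC libraries lie between -2.18 and -1.56, below all melanoblast libraries, and in Cdt1/Gmnn they lie between 1.67 and 3.03, above them.

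Between aged and adult McSC none of the 46 genes was called by edgeR, where 0.25% of all genes fell and 0.0532% rose. Their summed CPM on the TMM scale was 689 and 881 in aged McSC, against 723, 886, 731 and 736 in adult McSC, and the groups overlapped. As a share of all counts the 46 genes held 0.104 and 0.121% in aged McSC, against 0.0863, 0.0960, 0.0833 and 0.0886% in adult McSC, so by that measure both aged libraries were above all adult ones. The aged mean was 127% of the adult mean as a share of counts and 102% of it in TMM-scaled CPM. In the same comparison 5 of 9 Schwann cell and 3 of 7 fibroblast genes fell, and 0 genes of the other marker lists were called. The median log2 fold change, aged over adult, was -0.14 for the 46 genes and 0.08 for all genes, and became 0.23 on the scale of abundant genes. At an unadjusted p under 0.05 there were 4 of the 46 genes (E2f1, Mcm10, Cdc6 and Slbp), where 10.2% of all genes tested had one. DESeq2 called 0 of the 46 and limma with voom weights called 2, both higher in aged McSC, where 2.66% of all genes rose by that method.

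The 3 genes with the smallest p were all higher in aged McSC, without overlap of the groups, as were Rfc4, Orc1 and Ung. That makes 6 genes above and 2 below (Prim2 and Rpa2), where 15.5% of all genes were above and 12.1% below. The further pathway genes leaned the other way: of 76 tested, 4 were above and 17 below (22.4%), and 0 were called. E2f1 (chr2:154559407-154569892) had 8.53 and 6.37 CPM in aged McSC, against 4.71, 3.72, 2.27 and 2.04 CPM in adult McSC. Its log2 fold change was 1.22 (SE 0.377, edgeR adjusted p = 0.254), and limma with voom weights called it at 1.53 (adjusted p = 0.00790). Mcm10 had 8.94 and 7.41 CPM in aged McSC, against 5.22, 5.13, 4.70 and 3.29 CPM in adult McSC, which is 0.83 higher on the log2 scale (SE 0.285, edgeR adjusted p = 0.311). Cdc6 had 10.8 and 9.03 CPM in aged McSC, against 8.46, 5.17, 4.04 and 4.45 CPM in adult McSC. Adult 1 came close to the aged libraries, and the log2 fold change was 0.84 (SE 0.322, edgeR adjusted p = 0.397; limma with voom weights 1.04, adjusted p = 0.0317). All 3 genes were at low levels, and the 95th percentile of receptor genes was 2.63 CPM in aged and 2.22 CPM in adult McSC.

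All 6 helicase genes and all 5 genes of nucleotide supply and histone mRNA overlapped between aged and adult McSC. Mcm2 had 11.7 and 9.14 CPM in aged McSC, against 9.55, 12.8, 12.2 and 10.8 CPM in adult McSC. Rrm2 had 8.45 and 6.83 CPM in aged McSC, against 9.35, 8.51, 10.4 and 7.74 CPM in adult McSC, and E2f3 4.73 and 4.98 CPM in aged, against 4.17, 5.05, 5.08 and 4.66 CPM in adult McSC. The values of Mcm2, Rrm2 and E2f3 thus lay side by side in both ages, and the 6 helicase genes had log2 fold changes between -0.48 and -0.12. Pcna and Slbp were highest in aged 2: Pcna had 93.1 and 218 CPM in aged McSC, against 126, 131, 102 and 86.2 CPM in adult McSC, and Slbp 59.8 and 91.8 CPM in aged, against 54.8, 69.2, 41.6 and 43.2 CPM in adult McSC. The pseudogene Pcna-ps2 was likewise highest in aged 2, with 23 and 107 counts in aged McSC, against 41, 21, 35 and 30 counts in adult McSC. The mean of both genes in aged McSC thus rested on aged 2, which was also the shallowest library at 12594770 counts, and without it Pcna was -0.47 on the log2 scale in aged McSC over melanoblasts.

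**Figure D5:**
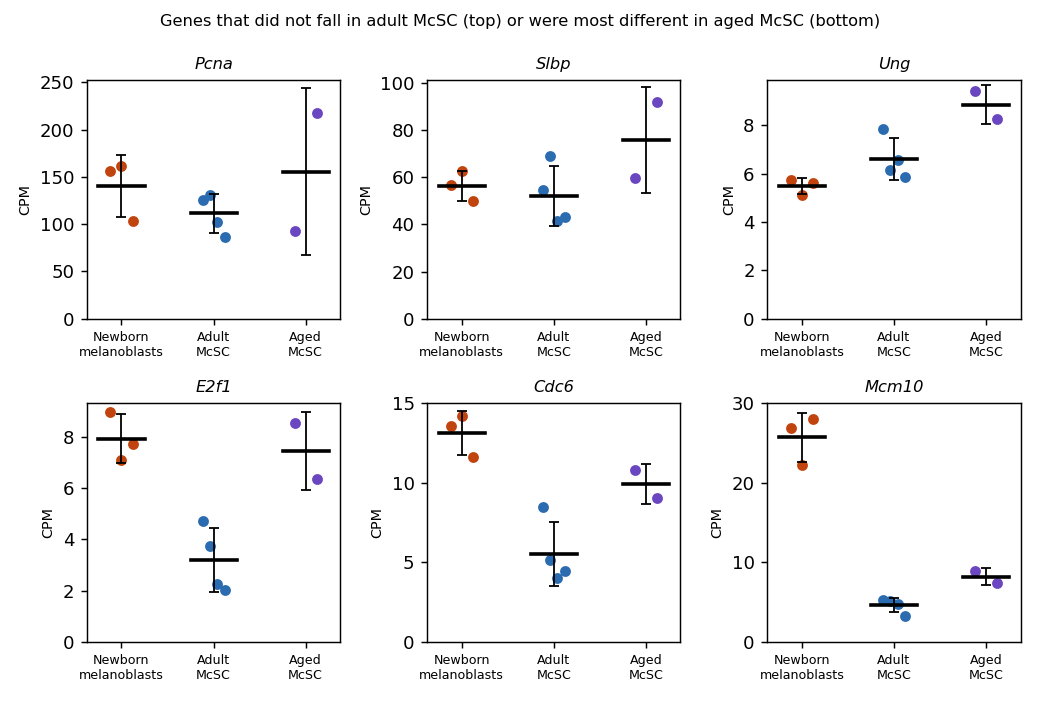
CPM of the 3 genes not called in adult McSC against melanoblasts (top row) and of the 3 with the smallest p in aged against adult McSC (bottom row); points are libraries, bars means and SD (n = 3, 4 and 2). In the bottom row both aged libraries lie above all 4 adult ones, while Pcna in aged McSC spreads from 93.1 to 218 CPM.

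Replication genes were also lower in aged McSC than in newborn melanoblasts; the comparison shares its melanoblast libraries with that of adult McSC and its aged libraries with that of aged against adult McSC. Of the 46 genes, 36 fell (78.3%) and 0 rose, where 20.3% of all genes fell and 20.4% rose, and the median was -1.47 for the 46 genes and 0.70 for all genes. The 46 genes held 0.104 and 0.121% of all counts in aged McSC, against 0.126, 0.131 and 0.133% in melanoblasts, and summed to 689 and 881 CPM on the TMM scale in aged McSC, against 2251, 2296 and 1578 CPM in melanoblasts. The groups did not overlap on either measure, but the aged mean was 86.5% of the newborn mean as a share of counts and 38.4% of it in TMM-scaled CPM. On the scale of abundant genes 16 fell, 3 rose (Pcna, Ung and Slbp) and the median was -0.31, where 5.54% of all genes fell and 48% rose. Of the marker genes, 11 of 12 keratinocyte, 4 of 6 macrophage and dendritic cell, 2 of 9 Schwann cell and 2 of 5 T and NK cell genes rose. In turn 6 of 7 fibroblast, 6 of 9 melanocyte lineage, 3 of 9 Schwann cell and 2 of 5 tested mast cell genes fell. All 6 helicase and all 8 firing genes fell in the main fit, as did 7 of 8 polymerase and primase genes, 4 of 6 clamp and loader genes, 3 of 6 licensing genes, 3 of 4 single-strand binding, ligation and repair genes, 4 of 5 genes of nucleotide supply and histone mRNA, and 1 of 3 E2F genes. In all, 39 of the 46 genes were lower in both aged libraries than in each melanoblast library, which held for 25.7% of all genes, and Ung alone was higher in both, which held for 40.4% of all genes. Without aged 1 the median was -1.41 for the 46 genes and 0.69 for all genes, and without aged 2 it was -1.43 and 0.83.

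The log2 fold changes in aged McSC over melanoblasts were -2.80 (SE 0.328, edgeR adjusted p = 9.44e-07) for Mcm2, -2.65 (SE 0.304, edgeR adjusted p = 6.86e-07) for Dbf4 and -2.91 (SE 0.325, edgeR adjusted p = 4.52e-07) for E2f3. In adult McSC the same genes stood at -2.68, -2.73 and -2.94. The helicase subunit genes were also uneven per kilobase in aged McSC, where the highest was 5.56 to 7.34 times the lowest, against 2.66 to 2.76 times in melanoblasts. The 10 genes not called in aged McSC were Orc1, Orc2, Cdc6, Pcna, Rfc4, Pold1, Ung, Slbp, E2f1 and E2f2. E2f1 had 8.53 and 6.37 CPM in aged McSC, against 8.96, 7.09 and 7.73 CPM in melanoblasts, so the groups overlapped (log2 fold change -0.09, SE 0.407, edgeR adjusted p = 0.873). Cdc6 had 10.8 and 9.03 CPM in aged McSC, against 13.6, 14.2 and 11.6 CPM in melanoblasts, a log2 fold change of -0.40 (SE 0.348, edgeR adjusted p = 0.346) without overlap. On the scale of abundant genes E2f1, Cdc6, Orc1, Orc2, Rfc4, Pold1 and E2f2 had a log2 fold change above 0 without passing the test, as did Rfc2, Pola1, Tk1, Rfc5 and Pold3, which had been called lower in the main fit, and Pcna was called higher (1.30, edgeR adjusted p = 0.00246).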

How the data were processed

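Raw counts per Ensembl gene and library were deposited by the authors, with no normalization, as the whole numbers in the files show. Per the labels' protocols, RNA with a RIN above 8.5 (20 ng) was amplified with a whole-transcriptome kit, 1000 ng of cDNA was taken into libraries with 10 PCR cycles, and 126-base read pairs were sequenced. Per the submitters' processing notes, Trimmomatic 0.36, FastQC 0.11.8, STAR 2.5.2, SAMtools 1.9, DESeq2 1.22.2 and the build mm10 were used; which program counted reads, on which annotation and with what use of strand is not given in the sources used here.

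IDs were matched to GENCODE M21 (49412 of 49671; the rest held 0.029% of counts). Counts were tested with edgeR 4.0.16 (R 4.3.3): TMM factors, filterByExpr, a robust quasi-likelihood fit of group means over all 9 libraries, and Benjamini-Hochberg adjustment over 31961 genes at a threshold of 0.05. The quasi-likelihood script was tested on simulated data in which equal numbers of genes were raised and lowered. That setting does not cover a shift of abundant genes as a body, so it cannot decide between the scales. CPM values use TMM library sizes. DESeq2 1.42.0, limma 3.58.1, other factors and filters, a replicate block and each library left out were the alternatives. Within-library ratios used a prior of 0.5 counts, scipy 1.17.1 and exact permutation. A floor of 3 counts is 0.089 to 0.238 CPM, and such floors cover counting error only.

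The 46 genes, the other lists and the tests were chosen with earlier results of these data known. Values in every library are given for the gene of each role with the smallest p and the gene with the highest mean CPM, for each gene that did not fall, and for the 3 with the smallest p in aged against adult McSC; Mcm10, Tk1, E2f2 and others shown beside these, and the helicase ratios, were picked after their values were seen. Of the 77 further genes, up to 3 per role with the smallest p, those that rose and those in the ratios are named by rule (1 gene that the rule names is not reported here), and Rb1, Rbl2 and Ccne1 were added after their values were seen.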

Additional observations from a re-analysis of the deposited data

Results flagged for a closer look

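In 3 of the 46 genes the lowest of the 4 adult libraries stood apart from the others by more than the critical value of Dixon's test at the 0.05 level (the gap to its neighbour over the whole range). At that level chance alone flags about 1 in 20 groups, so some of 46 genes. Mcm4 had 34.2 CPM in adult 1, against 42.2, 42.8 and 43.4 CPM in the other adult libraries. Gins4 had 11.6 CPM in the same library, against 16.0, 15.2 and 15.7 CPM. Gins1 had 1.58 CPM in adult 2, against 2.57, 2.43 and 2.41 CPM. All 3 genes were lower in every adult library than in every melanoblast library.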

How the results depend on the processing

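With factors from abundant genes, adult against newborn gave 19 genes lower, 2 higher and a median of -0.51 (further pathway genes: 35 lower, 7 higher), aged against newborn gave 16 lower, 3 higher and a median of -0.31, and aged against adult a median of 0.23 and 57 genes changed genome-wide. All genes then split into 10416 higher and 1985 lower in adult McSC, against 4836 and 5840 in the main analysis. The stricter filter gave 6877 and 7611 genes changed in adult and aged McSC against newborn, medians of -0.80 and -0.78, 1 and 3 of the 46 genes higher, and 4 further pathway genes higher. Its effect on the scale was not tested apart from the loss of genes. In aged against adult McSC, 97 genes changed in the main analysis, 314 with DESeq2, 1520 with limma and voom weights (2 of the 46 higher), 343 without a filter, 311 with the 2 groups alone and 172 with the replicate block.

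With each melanoblast or adult library left out in turn, 41 to 43 genes were lower in adult and 32 to 38 in aged McSC than in newborn. Of all genes, 14.1 to 20.9% and 17.4 to 22.5% fell in the same fits. Fits without aged 1 or aged 2 leave 1 aged library and are outside these ranges of calls. With each of the 9 libraries left out, the medians were -1.38 to -1.19, -1.60 to -1.36 and, aged against adult, -0.20 to 0.01. Genes changed ranged over 8056 to 14059, 7410 to 16292 and 13 to 303 (303 without melanoblast 3, 46 without adult 1, 49 without adult 3, 13 without aged 2). The ratios ranged over 0.95 to 1.22 (Cdt1/Gmnn), -2.59 to -2.11 (Rrm2/Rrm2b), -0.31 to 0.19 (Orc1/Orc4), 0.01 to 0.33 (Rfc4/Rfc1), -0.49 to -0.08 (Tk1/Tk2) and -0.14 to 0.42 (E2f1/E2f4). With adult McSC alone Rfc4/Rfc1 became -0.15 and E2f1/E2f4 -0.47.

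Signs turned for single genes. In adult against newborn these were Pcna (0.48 with abundant-gene factors, 0.17 with the stricter filter), Tk1 (0.01 with abundant-gene factors) and Slbp (0.66 and 0.37 likewise, 0.01 without a filter, 0.02 without mitochondrial rRNA). In aged against newborn, abundant-gene factors gave 0.40 for Orc1, 0.39 for Orc2, 0.73 for Cdc6, 0.39 for Rfc4, 0.59 for Pold1, 1.04 for E2f1 and 0.48 for E2f2, and turned 5 genes called lower in the main analysis: Rfc2 (0.36), Pola1 (0.32), Tk1 (0.16), Rfc5 (0.09) and Pold3 (0.01). The stricter filter gave 0.29 for Cdc6, 0.14 for Pold1, 0.61 for E2f1 and 0.04 for E2f2. Pcna was -0.07 both with voom weights and with the block, and -0.47 to 0.69 with libraries left out. E2f1 was 0.02 both without a filter and with 2 groups alone, 0.05 without mitochondrial rRNA and -0.26 to 0.23 with libraries left out.

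Replicate numbers did not pair the libraries (correlations of -0.28 to 0.0 between equal numbers and -0.23 to 0.24 between others). With the replicate block 41 genes were lower in adult and 35 in aged McSC than in newborn, where 15.9 and 19.5% of all genes fell. In adult McSC, Tk1 (edgeR adjusted p = 0.0545) and E2f2 (edgeR adjusted p = 0.050) were no longer called. Levels under the floor of 3 counts, at most 0.238 CPM, could not be resolved, and the lowest count of any of the 46 genes was 25. The causes of these shifts were not tested.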
